A study of Mus musculus with 16 samples.

Results

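The ubiquitin-conjugating (E2) enzymes of mouse rotator cuff muscle were taken as every gene of the deposited count table whose symbol begins with Ube2. The rule found 33 of 11710 genes, and all 33 passed the filter on low counts. It matches by name. Ube2d-ps is annotated as a transcribed pseudogene, and Ube2cbp is an E3 ligase named for binding an E2. GENCODE M21 lists 43 genes with such a symbol, of which 37 are protein-coding. Of the protein-coding ones Ube2v1, Ube2d2b, Ube2u, Ube2dnl1 and Ube2dnl2 were not analysed here.

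The samples fall into 4 groups of 4 that cross strain with surgery. The strains are C57BL/6J (BL6 below), a standard inbred strain, and MRL/MpJ (MRL below), an inbred strain in which ear wounds close unusually well. Operated muscle had been cut from its tendon and denervated, and unoperated muscle came from control mice of the same strain. The sample labels name the supraspinatus and the series description the infraspinatus, so the tissue is called rotator cuff muscle. No transgene, drug or other agent is named for any group, and age, sex and the time after surgery are not given in the labels. Nothing in the labels says that the 4 samples of a group are separate animals, so p-values measure the spread between these samples, which may be partly technical.

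Ubiquitin is passed from an activating E1 enzyme to the active-site cysteine of an E2, and from there, with an E3 ligase that picks the substrate, onto a lysine of the target. The E2 often sets the kind of chain that is built. Chains linked through lysine 48 of ubiquitin mark proteins for the proteasome and chains linked through lysine 63 serve in signalling and repair. Some E2 enzymes carry ubiquitin-like proteins such as SUMO, NEDD8 or ISG15 instead. In wasting muscle this route removes contractile proteins, and Ube2b and the Ube2d enzymes are among the E2 enzymes most often studied there.

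Total counts ran from 24323862 to 43552964 per sample. The lowest count of any member was 24, for Ube2ql1 in operated BL6 replicate 2. All 10 myofibre markers were counted in every sample, with a summed level of 151495 to 216900 CPM (counts scaled by library size) in unoperated and 68304 to 197208 CPM in operated muscle. Markers of other cell types were called higher with surgery in both strains for adipocytes and endothelium. In MRL 1 of 10 macrophage and 0 of 8 fibroblast markers were called, against 7 and 5 in BL6. In a test of whether surgery acted differently in the strains, 0 of these markers were called. Of the 10 myofibre markers, 4 were called lower in BL6 and 3 in MRL, and 0 higher. Of all genes, 35.1% were called higher in BL6 and 22.3% in MRL, and 32.8% and 22.7% lower. Summed over the 10 macrophage markers the level was 23.0 to 56.6 CPM in unoperated and 51.2 to 293 CPM in operated BL6, and 40.3 to 224 against 66.6 to 125 CPM in MRL. The 8 fibroblast markers summed to 683 to 1661 against 1107 to 7765 CPM in BL6 and to 1445 to 2662 against 1915 to 3957 CPM in MRL. The 7 adipocyte markers analysed here summed to 1227 to 1495 against 1997 to 2753 CPM in BL6 and to 1128 to 1298 against 2054 to 2965 CPM in MRL. The 6 endothelial markers went from 290 to 382 up to 615 to 811 CPM in BL6 and from 224 to 310 up to 322 to 803 CPM in MRL. No marker of these lists was at 0 in any sample. In bulk tissue, fewer cells of a type and less RNA per cell cannot be told apart, and the part of cell mixture in the results below was not tested. Operated BL6 replicate 4 had the highest macrophage and fibroblast sums, and unoperated MRL replicate 1 had a macrophage sum of 224 CPM against at most 46.6 in its group. Operated MRL replicate 4 had 11.8% of its counts in mitochondrial genes, where the other operated samples had 17.4% to 24.9%. Counts of calls are therefore also given without these 3 samples.

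Surgery moved some of the E2 genes in each direction, each called change being less than 3-fold. In BL6, edgeR's quasi-likelihood test called 16 of 33 members, 6 higher and 10 lower (calls here are at adjusted p below 0.05), against 67.9% of all genes (35.1% higher and 32.8% lower). In MRL 6 were called, 1 higher and 5 lower, against 45% of all genes (22.3% higher and 22.7% lower). Higher in BL6 were Ube2d2a, Ube2e2, Ube2j2, Ube2g2, Ube2m and Ube2q1. Among the 10 lower in BL6 were Ube2d1, Ube2d3, Ube2e1, Ube2g1, Ube2r2, Ube2v2, Ube2o, Ube2q2 and Ube2cbp. The members called in MRL were all called in the same direction in BL6: Ube2d2a higher, and Ube2d1, Ube2g1, Ube2q2, Ube2r2 and Ube2cbp lower. Over all genes, the changes in BL6 and MRL had the same sign in 87.7%, so such agreement is not particular to these members.

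The median log2 fold change of the members was -0.09 in BL6 and -0.07 in MRL, beside 0.04 and 0.01 over all 11709 genes tested. The median absolute change was 0.35 in BL6 and 0.22 in MRL, beside 0.57 and 0.38 over all genes. The sign of the members' median moved with the scaling, as did the median of all genes. With upper-quartile factors the members had 0.02 in BL6 and 0.03 in MRL, beside 0.16 and 0.10 over all genes, and the members' calls split into 8 higher and 7 lower in BL6 and 3 higher and 4 lower in MRL. Of all genes, 40.6% were then called higher and 27.9% lower in BL6, and 27.3% and 18.4% in MRL. Scaling by total counts gave a median of 0.02 in BL6, beside 0.18 over all genes. It called 7 members higher and 8 lower, beside 37.9% and 25.0% of all genes. Without the 3 samples named above, 19 members were called in BL6, 7 higher and 12 lower, and 13 in MRL, 4 higher and 9 lower, while 67.6% and 62.4% of all genes were called. The MRL count was also 10 without operated BL6 replicate 4 (51.3% of all genes called), 10 without operated MRL replicate 4 (52.5%), 3 without unoperated MRL replicate 4 (34.9%) and 2 without operated MRL replicate 3 (29.8%). Ube2d1 and Ube2d2a were the 2 members called in both strains under every alternative tried. The matching share of all genes was not worked out, so whether 2 members is many or few was not tested.

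**Figure D1:**
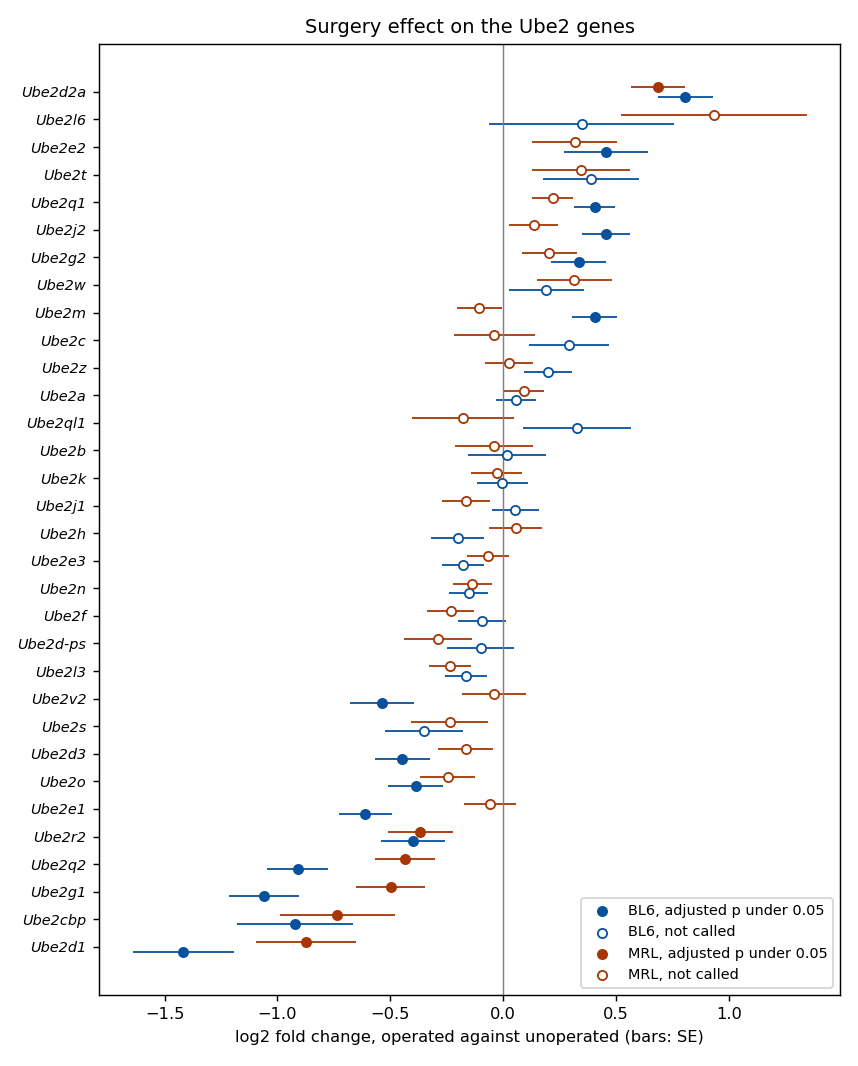
Log2 fold change of 32 members after surgery (horizontal axis, operated against unoperated, bars are SE) in BL6 and MRL. Filled points passed an adjusted p of 0.05. Ube2d1 lies lowest at -1.42 in BL6 and -0.87 in MRL, and Ube2d2a highest in BL6 at 0.81.

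The Ube2d and Ube2e families, E2 enzymes that work with many E3 ligases and build chains of mixed linkage, held both ends of this range in BL6. Of their 6 analysed genes, 2 rose and 3 fell in BL6, and 1 rose and 1 fell in MRL, where 67.9% and 45% of all genes were called. Ube2d1 (ENSMUSG00000019927; GRCm38 chromosome 10, 71254980 to 71285262, minus strand) was at 179, 198, 161 and 180 CPM in unoperated BL6 and at 52.0, 111, 63.1 and 42.6 CPM in operated BL6. In MRL it was at 135, 146, 169 and 150 CPM in unoperated and 69.7, 91.5, 74.0 and 92.2 CPM in operated samples. In each strain every operated sample lay under every unoperated one, and operated BL6 replicate 2 was the least reduced of its group. Ube2d1 fell by 1.42 on the log2 scale in BL6 (SE 0.22, 2.67-fold, adjusted p 9.38e-05) and by 0.87 in MRL (SE 0.22, 1.83-fold, adjusted p 0.00686), in edgeR's quasi-likelihood test.

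Ube2d2a (ENSMUSG00000091896; chromosome 18, 35771558 to 35809494, plus strand), a close relative of Ube2d1, went the other way. It was at 11.3, 11.2, 10.3 and 10.9 CPM in unoperated BL6 and at 18.6, 20.8, 18.3 and 18.8 CPM in operated BL6. Unoperated MRL held 13.8, 11.7, 11.6 and 12.2 CPM and operated MRL 22.4, 20.4, 21.9 and 14.5 CPM. The groups did not overlap in either strain, and operated MRL replicate 4 lay lowest of the operated samples. The rise was 0.81 in BL6 (SE 0.12, 1.75-fold, adjusted p 6.16e-05) and 0.68 in MRL (SE 0.12, 1.61-fold, adjusted p 0.00121) in edgeR's quasi-likelihood test. A processed pseudogene, Gm9762, matches 444 bases of Ube2d2a without a mismatch and was not analysed here, so reads of that stretch may not all have been counted for Ube2d2a.

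Ube2d3, of the same family, fell in BL6 by 0.45 (SE 0.12, adjusted p 0.00482), from 171 ± 13.7 to 126 ± 22.2 CPM (SD, n = 4). In MRL its log2 fold change was -0.17 (SE 0.12, adjusted p 0.270). A stretch of 636 bases of a Ube2d3 transcript matches Spopl at 95.9% identity, and Spopl fell in both strains, by 1.34 (BL6) and 0.65 (MRL); the share of Ube2d3 counts that could belong to Spopl was not tested. Ube2e1 fell in BL6 by 0.61 (SE 0.12, adjusted p 0.000382), from 44.9 ± 1.05 to 29.4 ± 6.25 CPM, and stood at 35.1 ± 1.54 and 33.8 ± 1.86 CPM in MRL, where its log2 fold change was -0.06 (adjusted p 0.697). On the opposite strand, 718 exonic bases of Ube2e1 lie over Nkiras1, which was not called for surgery.

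Ube2e2 was counted at 3.85, 4.43, 3.28 and 3.68 CPM in unoperated BL6 and at 3.96, 4.45, 5.05 and 7.42 CPM in operated BL6. The groups overlapped, and operated replicate 4 stood above the rest. Its log2 fold change in BL6 was 0.46 (SE 0.19, adjusted p 0.0395). In MRL the unoperated samples ran from 3.64 to 4.03 CPM and the operated ones from 3.95 to 5.61 CPM. The log2 fold change in MRL was 0.32 (adjusted p 0.172). The BL6 call was lost without unoperated BL6 replicate 1, 3 or 4, operated BL6 replicate 3 or 4, or unoperated MRL replicate 4, with adjusted p from 0.0508 to 0.213 and a log2 fold change of 0.23 without operated BL6 replicate 4. Ube2e3 had -0.18 in BL6 and -0.07 in MRL and was called in neither.

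**Figure D2:**
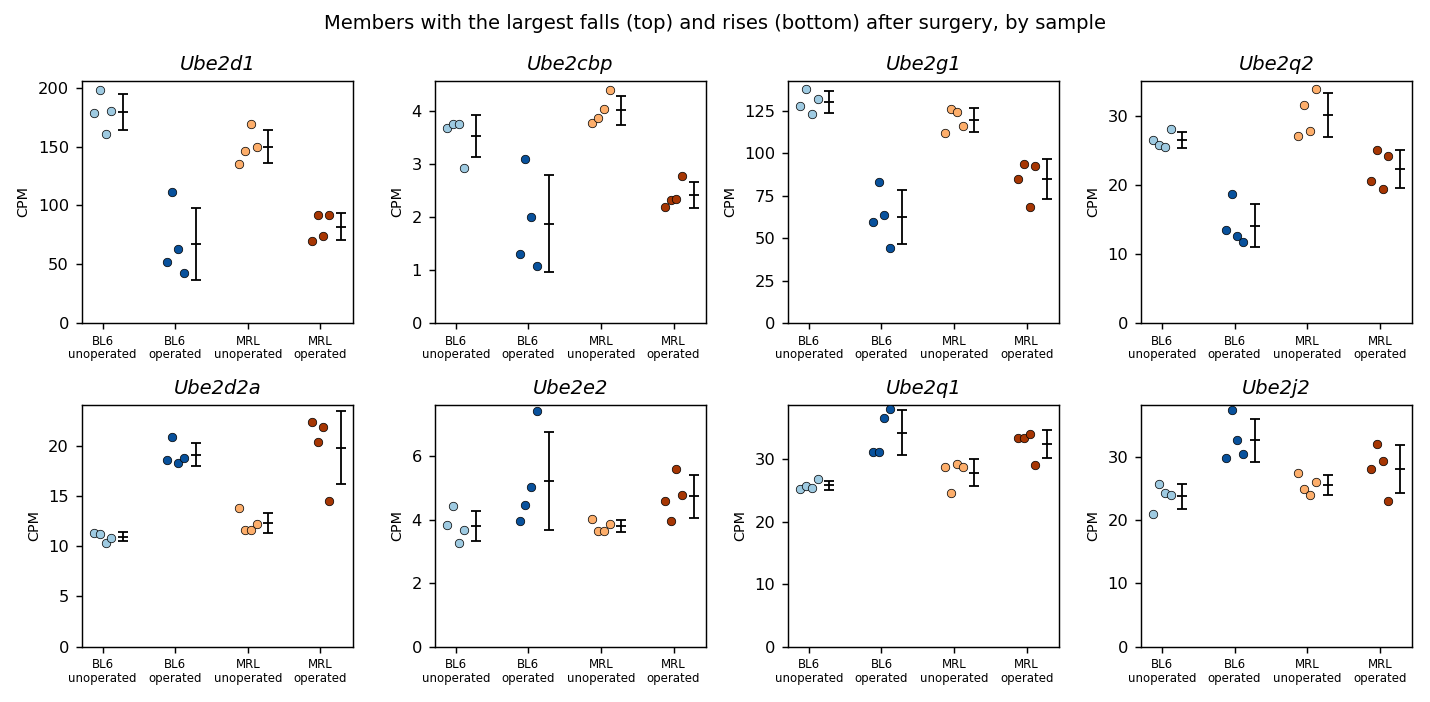
Level in CPM (vertical axis, from 0) of the 4 members with the largest falls and the 4 with the largest rises by the mean of both strains, 1 point per sample, with the mean and SD of each group of 4 beside it. Operated and unoperated points of Ube2d1, Ube2g1, Ube2q2 and Ube2d2a are apart in both strains, while those of Ube2e2 overlap.

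Among the E2 enzymes for chains through lysine 48 and for degradation of proteins of the endoplasmic reticulum, 2 of 6 rose and 2 fell in BL6, and 2 fell in MRL, shares near or below those of all genes (67.9% called in BL6 and 45% in MRL). Ube2g1 (ENSMUSG00000020794; chromosome 11, 72607283 to 72686481, plus strand) was at 128, 138, 123 and 132 CPM in unoperated BL6 and at 59.3, 83.1, 63.8 and 44.0 CPM in operated BL6. Unoperated MRL held 112, 126, 125 and 116 CPM and operated MRL 84.7, 93.8, 68.4 and 92.3 CPM. No operated sample reached an unoperated one of its strain. Ube2g1 fell by 1.06 in BL6 (SE 0.15, 2.08-fold, adjusted p 5.35e-05) and by 0.50 in MRL (SE 0.15, 1.41-fold, adjusted p 0.0168). Without operated MRL replicate 3, its lowest operated MRL sample, the MRL value was -0.41 with an adjusted p of 0.0621.

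Its paralog Ube2g2, which works with ligases in the membrane of the endoplasmic reticulum, rose in BL6 by 0.33 (adjusted p 0.0237). It was at 76.6 ± 2.50 CPM in unoperated and 96.6 ± 5.27 CPM in operated BL6 (SD, n = 4). That call was lost without unoperated BL6 replicate 2 (adjusted p 0.0589) and without operated BL6 replicate 1 (adjusted p 0.0555). In MRL Ube2g2 was at 82.9 to 85.4 CPM in 3 operated samples and at 126 CPM in operated replicate 4, and was not called (log2 fold change 0.20, adjusted p 0.177).

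Ube2j2, an E2 anchored in that membrane, was at 21.0, 25.7, 24.3 and 23.9 CPM in unoperated and at 29.8, 37.4, 32.6 and 30.4 CPM in operated BL6, without overlap. It rose by 0.46 (SE 0.11, 1.37-fold, adjusted p 0.00174). In MRL it was at 27.4, 24.8, 23.9 and 26.1 CPM in unoperated and 28, 32.0, 29.3 and 23.1 CPM in operated samples. There operated replicate 4 lay under every unoperated sample, and the log2 fold change was 0.14 (adjusted p 0.307). Ube2j1, the other membrane-anchored E2, had 0.05 in BL6 and -0.16 in MRL and was not called for surgery.

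Ube2r2, an E2 of the cullin ligases, fell from 214 ± 22.7 to 162 ± 39.1 CPM in BL6 (SD, n = 4; log2 fold change -0.40, adjusted p 0.0218) and from 239 ± 17.5 to 185 ± 11.2 CPM in MRL (-0.37, adjusted p 0.0476). Both calls were near the threshold. The BL6 call was lost without unoperated BL6 replicate 3 or 4 or operated BL6 replicate 1, 3 or 4 (adjusted p 0.0510 to 0.0656). The MRL call was lost without any one of 12 samples, namely unoperated BL6 replicates 2 to 4, operated BL6 replicates 1 and 3, unoperated MRL replicates 2 to 4 and each operated MRL sample (adjusted p 0.0526 to 0.106). Ube2k, which extends such chains, was not called in BL6 (SE 0.11, adjusted p 0.973) or in MRL (log2 fold change -0.03, adjusted p 0.854).

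Ube2q2, a member with a long extension before its catalytic domain, was at 26.6, 25.8, 25.6 and 28.2 CPM in unoperated BL6 and at 13.5, 18.7, 12.6 and 11.7 CPM in operated BL6. In MRL it was at 27.2, 31.7, 27.8 and 34.0 CPM in unoperated and 20.5, 25.0, 19.4 and 24.2 CPM in operated samples. The groups were apart in both strains. Ube2q2 fell by 0.91 in BL6 (SE 0.14, 1.88-fold, adjusted p 6.22e-05) and by 0.44 in MRL (SE 0.13, 1.35-fold, adjusted p 0.0167), and the MRL call was lost without unoperated MRL replicate 4 (adjusted p 0.0528) or operated MRL replicate 3 (adjusted p 0.0591). Pseudogenes match Ube2q2 over 1137 bases (99.0% identity) and Ube2j2 over 780 bases (99.2%). The related Ube2q1 held 25.3, 25.8, 25.4 and 26.8 CPM in unoperated and 31.1, 31.1, 36.5 and 38.0 CPM in operated BL6, a rise of 0.41 (SE 0.09, 1.33-fold, adjusted p 0.00116). In MRL Ube2q1 was at 28.8, 24.6, 29.3 and 28.7 CPM in unoperated and 33.4, 33.3, 34.0 and 29.0 CPM in operated samples. Its log2 fold change there was 0.22, with an adjusted p of 0.0581. It was called in MRL without operated BL6 replicate 2 (adjusted p 0.0490), operated BL6 replicate 4 (0.0384) or operated MRL replicate 4 (0.0231).

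Ube2cbp, the E3 ligase in the list, was at 3.66, 3.76, 3.75 and 2.92 CPM in unoperated BL6 and at 1.29, 3.10, 2.0 and 1.08 CPM in operated BL6. Operated replicate 2 lay within the unoperated range. In MRL it was at 3.76, 3.86, 4.03 and 4.39 CPM in unoperated and 2.19, 2.32, 2.34 and 2.76 CPM in operated samples, without overlap. The BL6 fall was -0.92 (SE 0.26, adjusted p 0.00537) and the MRL fall -0.73 (SE 0.25, adjusted p 0.0287). The MRL call was lost without unoperated MRL replicate 2, 3 or 4 or operated MRL replicate 1, 2 or 3, with adjusted p from 0.0521 to 0.0700.

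The stretches just upstream of Ube2d1 and Ube2g1, the E2 genes with the largest falls, are shown because their levels fell together, and that of Ube2ql1 because it had the largest difference between strains (below). Each is the 250 bases before the RefSeq start on GRCm38.p6, 5′ to 3′ on the gene's strand, from chr10:71285263-71285512 (minus), chr11:72607011-72607260 (plus) and chr13:69739898-69740147 (minus). Capitals mark CAGCTG, an E-box of the kind bound by myogenic factors, and GGGCGG, a GC box, on either strand.
Ube2d1: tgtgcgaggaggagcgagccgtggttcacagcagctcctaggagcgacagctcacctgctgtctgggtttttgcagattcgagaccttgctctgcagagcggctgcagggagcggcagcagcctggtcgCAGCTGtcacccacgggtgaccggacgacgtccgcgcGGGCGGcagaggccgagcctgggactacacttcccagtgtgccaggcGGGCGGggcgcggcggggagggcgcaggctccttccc
Ube2g1: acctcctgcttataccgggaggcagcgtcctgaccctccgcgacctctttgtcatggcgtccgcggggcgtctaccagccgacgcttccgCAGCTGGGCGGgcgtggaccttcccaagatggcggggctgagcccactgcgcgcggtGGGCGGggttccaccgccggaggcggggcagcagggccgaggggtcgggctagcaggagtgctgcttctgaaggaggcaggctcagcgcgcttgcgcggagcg
Ube2ql1: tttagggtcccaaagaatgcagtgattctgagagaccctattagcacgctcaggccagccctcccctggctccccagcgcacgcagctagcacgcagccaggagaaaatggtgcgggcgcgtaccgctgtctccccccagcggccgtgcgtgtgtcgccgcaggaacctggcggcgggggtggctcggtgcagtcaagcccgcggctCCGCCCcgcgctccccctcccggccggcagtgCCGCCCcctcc

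A RefSeq promoter was matched by symbol for 26 of the 33 members, 1 start per gene. For members this was the start nearest to the GENCODE gene start, and for other genes the first listed. The windows compared below were therefore not chosen alike. CAGCTG was found in 4 of the 26 (15.4%), namely Ube2d1, Ube2g1, Ube2e2 and Ube2m, and in 12.8% of the same window of all 27025 genes with a promoter, noncoding genes included. In Ube2d1 it begins 121 bases before the start and in Ube2g1 160, where it overlaps a GC box. GGGCGG was found in 17 of the 26 (65.4%), against 32.9% of all genes. Other motifs were searched too. CCAAT was in 23.1% of the 26 and 34.5% of all, and TATAAA in 7.69% and 13.0%. Letters of the NRF1, CRE, ETS and interferon response motifs were each in at most 1 of the 26, beside 1.61% to 3.04% of all. The FoxO letters GTAAACA and the letters AAGGTCA of estrogen-related receptors were in 0 of the 26 windows, and in 3.09% and 4.05% of all. These are matches of letters within 250 bases and no measure of binding.

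Ube2a and Ube2b, near-identical E2 enzymes of the N-degron route and of histone H2B, were not called for surgery in either strain. Ube2b (ENSMUSG00000020390; chromosome 11, 51985497 to 52000762) was at 647, 665, 657 and 688 CPM in unoperated BL6 and at 695, 888, 698 and 408 CPM in operated BL6. The operated samples lay on both sides of the unoperated ones, with replicate 2 highest and replicate 4 lowest. In MRL Ube2b was at 639, 668, 657 and 687 CPM in unoperated and 710, 701, 594 and 575 CPM in operated samples. Again Ube2b overlapped between the groups. Its log2 fold change was 0.02 in BL6 (SE 0.17, adjusted p 0.936) and -0.04 in MRL (SE 0.17, adjusted p 0.864). Ube2a had 0.06 and 0.09 in the strains, each with an SE of 0.09.

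Per kilobase of exon, Ube2b was the most abundant member, with 311 ± 44.9 CPM per kilobase over the 16 samples (SD) and a lowest value of 192. Next were Ube2r2 with 47.8 ± 8.88, Ube2m with 43.3 ± 8.17, Ube2g2 with 36.0 ± 5.45 and Ube2d1 with 27.4 ± 11.7 CPM per kilobase. The order is of means over all groups, and in operated BL6 Ube2m (55.2) and Ube2g2 (39.7) stood above Ube2r2 (38.8). The ranges of these 4 overlapped, and none reached that of Ube2b, since the highest value of Ube2m was 63.6. Ube2v2, at 0.799 ± 0.136, was lowest. The lengths are the union of all annotated exons, 24499 bases for Ube2d3, so levels of genes with many long transcripts are understated. Summed over the members, the level was 2259 ± 44.4 CPM in unoperated and 2005 ± 364 CPM in operated BL6, and 2329 ± 79.0 and 2097 ± 109 CPM in MRL (SD, n = 4). Ube2b alone took 29.4% ± 0.234 of this in unoperated BL6 and 33.0% ± 4.76 in operated BL6.

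Ube2n, the E2 for chains through lysine 63, had a log2 fold change of -0.15 in BL6 and -0.14 in MRL and was not called. Ube2v2, an inactive partner with which Ube2n builds such chains, fell in BL6 by 0.54 (SE 0.14, adjusted p 0.00379), from 6.76 ± 0.712 to 4.66 ± 0.574 CPM. In MRL Ube2v2 had -0.04 (adjusted p 0.831). Ube2v1, another such partner, was not analysed here. Processed pseudogenes match Ube2n over 459 bases and Ube2v2 over 438 bases without a mismatch, so their levels are uncertain.

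Among the E2 enzymes for ubiquitin-like proteins, Ube2m rose in BL6 and was not called in MRL. Ube2m, which attaches NEDD8 to cullins, was at 90.0, 103, 105 and 95.1 CPM in unoperated and at 121, 150, 136 and 113 CPM in operated BL6, without overlap. It rose by 0.41 (SE 0.10, 1.32-fold, adjusted p 0.00222). In MRL Ube2m was at 91.3, 89.4, 90.8 and 101 CPM in unoperated and 86.1, 90.9, 81.5 and 87.4 CPM in operated samples. Its log2 fold change there was -0.11 (adjusted p 0.389). Ube2f, the other NEDD8 E2, had -0.09 and -0.23 and was not called.

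Ube2l6, the E2 for the interferon-induced modifier ISG15, was at 6.55, 5.29, 12.6 and 4.90 CPM in unoperated and 8.27, 5.89, 10.5 and 12.6 CPM in operated BL6, and at 7.79, 10.3, 4.48 and 4.33 CPM and 10.4, 7.84, 24.9 and 8.48 CPM in MRL. The groups overlapped in both strains, and operated MRL replicate 3 was highest. Its log2 fold changes of 0.35 (SE 0.41) and 0.93 (SE 0.41, adjusted p 0.0742) were not called. A stretch of 260 bases of a Ube2l6 transcript matches Ift46 at 96.5% identity. Ift46 rose in BL6 by 0.53 (adjusted p 0.00369) and had 0.30 in MRL (adjusted p 0.0822). The share of Ube2l6 counts that could belong to Ift46 was not tested. Of the 11 interferon response genes listed beside Ube2l6, 10 were called higher in BL6 and 11 in MRL, with medians of 1.57 and 1.29. Bst2, an interferon-induced membrane protein, rose by 1.94 and 1.82.

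The 3 E2 enzymes of dividing cells, Ube2c and Ube2s of the anaphase-promoting complex and Ube2t of DNA crosslink repair, were not called for surgery. Ube2c was counted at 4.21 to 7.51 CPM over all samples. On chromosome 2, 592 exonic bases of Ube2c lie opposite exons of Tnnc2, the fast muscle troponin C, which was at 7123 to 20734 CPM. The use of strand in counting is not stated, so reads of the 2 genes cannot be told apart there. Of 12 genes of cell division listed as a guide, only Pcna and Mcm2 were among the genes analysed here. Ube2s had -0.35 in BL6 and -0.24 in MRL.

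Of the remaining E2 genes, Ube2o, a large enzyme with both E2 and E3 activity, fell in BL6 from 46.5 ± 5.78 to 35.5 ± 4.40 CPM (log2 fold change -0.39, adjusted p 0.0111). With total-count and upper-quartile scaling its adjusted p was 0.199 and 0.0579. In MRL it had -0.24 (adjusted p 0.110). Ube2h, Ube2l3, Ube2w, Ube2z and Ube2ql1 were not called for surgery, with log2 fold changes between -0.20 and 0.33 in BL6 and between -0.23 and 0.32 in MRL.

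Whether surgery acted differently in the strains was tested by the interaction. None of the 33 members was called in edgeR's quasi-likelihood test, against 0.248% of all genes (0.154% higher and 0.0939% lower). At an unadjusted p under 0.05 there were 5 members, against 15.7% of all genes. DESeq2 called Ube2m alone, beside 2.14% of all genes. The largest evidence was for Ube2m, with a difference of -0.51 (MRL minus BL6; SE 0.14, unadjusted p 0.00223, adjusted p 0.133), and for Ube2e1, with 0.55 (SE 0.16, unadjusted p 0.00420, adjusted p 0.164). Ube2e1 was called without operated BL6 replicate 2, at 0.69 (adjusted p 0.0375), where 0.589% of all genes were called. Ube2g1 (0.56), Ube2v2 (0.50) and Ube2q2 (0.47) were the others, each with an adjusted p of at least 0.246. Members called in BL6 alone are thus not shown to differ between strains in their response. Over the 33 members, BL6 and MRL changes had Pearson's r = 0.808 and Spearman's rho = 0.790, a description over genes measured in the same libraries. They had the same sign in 27 members (81.8%, beside 87.7% of all genes), and the change was larger in BL6 in 24 (72.7%, beside 76.2%).

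Of the E2 genes, Ube2ql1 differed most between the strains. Of the members, 15.2% were called among unoperated and 18.2% among operated samples, not below the shares of all genes given here. Among unoperated samples 5 of 33 members were called between MRL and BL6, 3 higher in MRL (Ube2ql1, Ube2d-ps and Ube2j1) and 2 lower (Ube2t and Ube2h), against 10.4% of all genes (5.02% higher and 5.36% lower). Among operated samples 6 were called, 4 higher (Ube2ql1, Ube2d-ps, Ube2q2 and Ube2d3) and 2 lower (Ube2t and Ube2m), against 12.9% of all genes (7.6% higher and 5.27% lower). Total-count scaling moved the median of all genes among unoperated samples from 0.01 to 0.15. It called 5 members higher and 1 lower there, beside 6.34% and 2.67% of all genes. Among unoperated samples the count was 3 without unoperated BL6 replicate 2 or 4 or without unoperated MRL replicate 1, 2 or 4. The share of all genes called was then 7.09% to 7.73%. Among operated samples the count was 11 without operated BL6 replicate 2, with 15.7% of all genes called. Without the 3 samples that stood apart, 6 members were called among unoperated and 8 among operated samples, beside 14.3% and 14.8% of all genes, and 0 in the interaction.

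Ube2ql1 (ENSMUSG00000052981; chromosome 13, 69702832 to 69739889, minus strand), a Ube2q-like gene, was at 1.35, 1.51, 1.32 and 1.68 CPM in unoperated BL6 and at 5.72, 5.72, 5.52 and 7.37 CPM in unoperated MRL. After surgery it was at 1.86, 0.930, 2.33 and 2.22 CPM in BL6 and at 5.08, 6.28, 4.22 and 5.90 CPM in MRL. Every MRL sample lay above every BL6 sample. The difference was 2.05 among unoperated (SE 0.24, 4.14-fold, adjusted p 1.87e-05) and 1.54 among operated samples (SE 0.24, 2.92-fold, adjusted p 0.000353). Its sequence upstream, printed above, is that of the BL6 reference, and the effect of MRL variants on read alignment was not tested here or for any gene below.

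Ube2d-ps (ENSMUSG00000083844; chromosome 11, 5762129 to 5784710, plus strand), the pseudogene, was at 38.1, 43.2, 48.6 and 47.2 CPM in unoperated BL6 and at 81.3, 80.8, 93.3 and 99.6 CPM in unoperated MRL. After surgery it was at 40.8, 53.7, 40.4 and 30.5 CPM in BL6 and at 68.5, 84.0, 62.1 and 76.3 CPM in MRL, again without overlap. The difference was 1.0 among unoperated (SE 0.15, 2.0-fold, adjusted p 0.000288) and 0.82 among operated samples (SE 0.15, 1.76-fold, adjusted p 0.00177). It was not called for surgery (-0.10 in BL6 and -0.29 in MRL). No other member or tested gene matched it at 95% identity over 200 bases. Ube2d4, a processed pseudogene not analysed here, matches it over 285 bases at 95.1% identity. On the opposite strand, 112 exonic bases of Ube2d-ps lie over Urgcp. The share of its counts that these could affect was not tested.

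Ube2t was lower in MRL. It was at 7.21, 5.17, 5.84 and 5.95 CPM in unoperated BL6 and 2.57, 3.14, 3.87 and 3.41 CPM in unoperated MRL, without overlap. Operated BL6 held 9.53, 8.72, 8.45 and 5.03 CPM and operated MRL 5.24, 4.30, 2.88 and 4.13 CPM, where BL6 replicate 4 lay under MRL replicate 1. The difference was -0.89 among unoperated (SE 0.22, adjusted p 0.0132) and -0.94 among operated samples (SE 0.22, adjusted p 0.00863). Pcna, one of the 2 cell division genes analysed, was called lower in MRL, at -0.41 among unoperated and -0.56 among operated samples (adjusted p 0.0385 and 0.00561). The other, Mcm2, was not called, at -0.27 and -0.17 (adjusted p 0.249 and 0.478).

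Ube2q2, Ube2m and Ube2d3 differed between strains among operated samples. Operated MRL held more Ube2q2, by 0.66 (SE 0.14, adjusted p 0.00394), and no operated MRL sample was under 19.4 CPM while no operated BL6 sample was over 18.7. It held less Ube2m, by -0.59 (SE 0.10, 1.5-fold, adjusted p 0.000818), with at most 90.9 CPM against at least 113 in BL6. Ube2d3 was at 126, 154, 123 and 100 CPM in operated BL6 and 177, 201, 168 and 174 CPM in operated MRL, a difference of 0.52 (SE 0.12, adjusted p 0.0106). Among unoperated samples these 3 genes had 0.18, -0.08 and 0.24 and were not called, although total-count scaling called Ube2d3 there (0.38, adjusted p 0.0171). The unoperated groups of Ube2d3 did not overlap either, with 159 to 184 CPM in BL6 and 189 to 220 CPM in MRL. Spopl, which matches part of Ube2d3, was also higher in operated MRL (0.75, adjusted p 0.00157) and had 0.06 among unoperated samples. Its part in the Ube2d3 difference was not tested. Fitted with the operated groups alone, Ube2q2, Ube2d3 and Ube2t had adjusted p of 0.0542, 0.102 and 0.0695. In that fit 3 members were called, beside 4.91% of all genes.

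Ube2j1 was higher in unoperated MRL, 53.4 ± 3.51 against 40.7 ± 5.0 CPM (0.39, adjusted p 0.0236), and lost its call without any of unoperated BL6 replicates 2 to 4 or unoperated MRL replicate 1, 2 or 4 (adjusted p 0.0629 to 0.0800). Ube2h, the E2 of a ligase complex with a role in red blood cell maturation, was lower in unoperated MRL, 48.9 ± 2.24 against 64.1 ± 5.67 CPM (-0.39, adjusted p 0.0455). Its call was lost without any of 11 samples, namely unoperated BL6 replicate 1, 2 or 4, operated BL6 replicate 1 or 3, any unoperated MRL sample and operated MRL replicate 1 or 3 (adjusted p 0.0517 to 0.133). With total-count scaling it was -0.25 (adjusted p 0.406). A lincRNA, Gm26526, matches 2938 bases of Ube2h at 99.1% identity and was not analysed here.

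**Figure D3:**
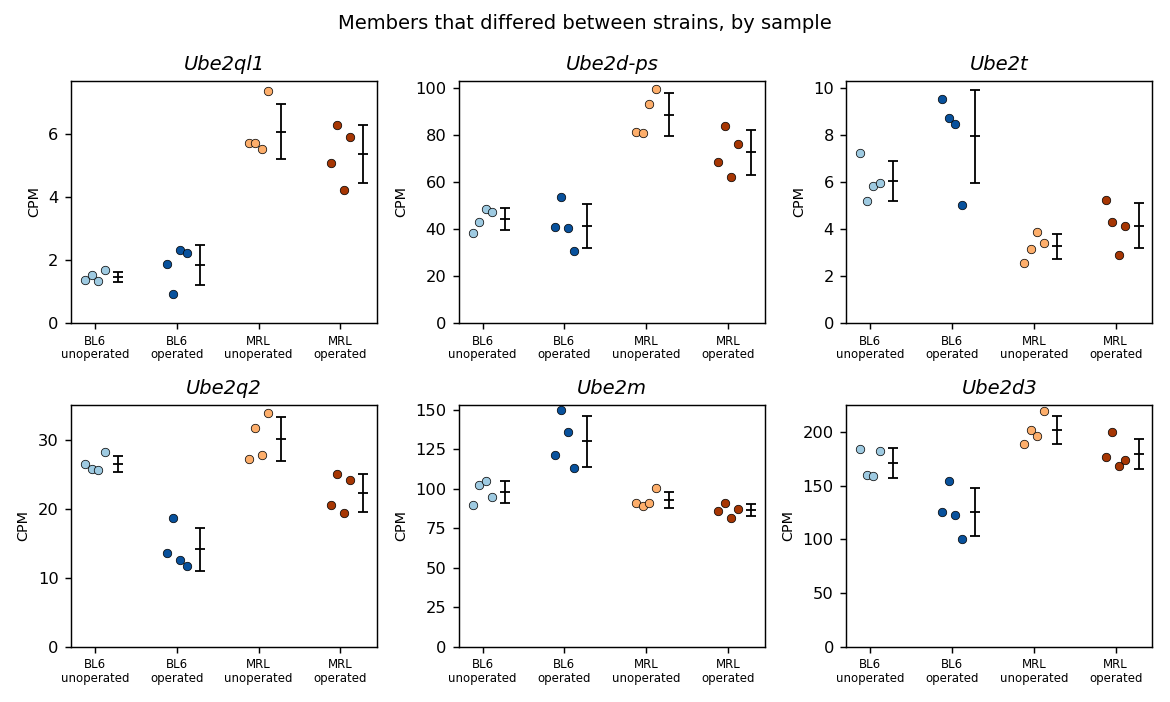
Level in CPM (vertical axis, from 0) of 6 members called between strains, 1 point per sample, with the mean and SD of each group of 4 beside it. MRL points of Ube2ql1 and Ube2d-ps lie above all BL6 points, and those of Ube2q2, Ube2m and Ube2d3 were called between operated and not between unoperated groups, with no interaction called.

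The genes that work before and after the E2 step were listed for comparison, with the background shares for surgery given above. Of 8 E1 genes, 2 rose and 5 fell in BL6 and 1 rose and 3 fell in MRL, with medians of -0.42 and -0.24. Uba6, which can charge Ube2z, fell by 1.06 in BL6 (adjusted p 2.17e-05) and by 0.38 in MRL (adjusted p 0.0294), and Uba7, the E1 for ISG15, rose by 0.69 (adjusted p 0.0459) and 0.97 (adjusted p 0.0157). Of 6 E2 genes without the Ube2 name, 1 rose and 1 fell in BL6 and 1 fell in MRL. Birc6, a giant E2 and E3 hybrid, fell by 1.04 (adjusted p 0.000109) and 0.47 (adjusted p 0.0318), and Ufc1, the E2 for UFM1, rose by 0.33 in BL6 (adjusted p 0.0151), with 0.05 in MRL (adjusted p 0.713) and no interaction called (adjusted p 0.383).

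Of 7 genes for ubiquitin and its relatives, 5 rose in BL6, among them Ubb, Nedd8, Sumo3 and Isg15, and 3 in MRL, among them Nedd8 and Isg15, and none fell, with medians of 0.67 and 0.41. Isg15 rose by 1.68 (adjusted p 0.00264) and 1.55 (adjusted p 0.0105). Of 18 E3 ligases known in muscle, 1 rose and 14 fell in BL6 and 1 rose and 5 fell in MRL, with medians of -0.64 and -0.33. Stub1, a ligase of chaperone clients that works with Ube2d enzymes, rose by 0.76 and 0.40 (adjusted p 0.000105 and 0.0173).

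**Figure D4:**
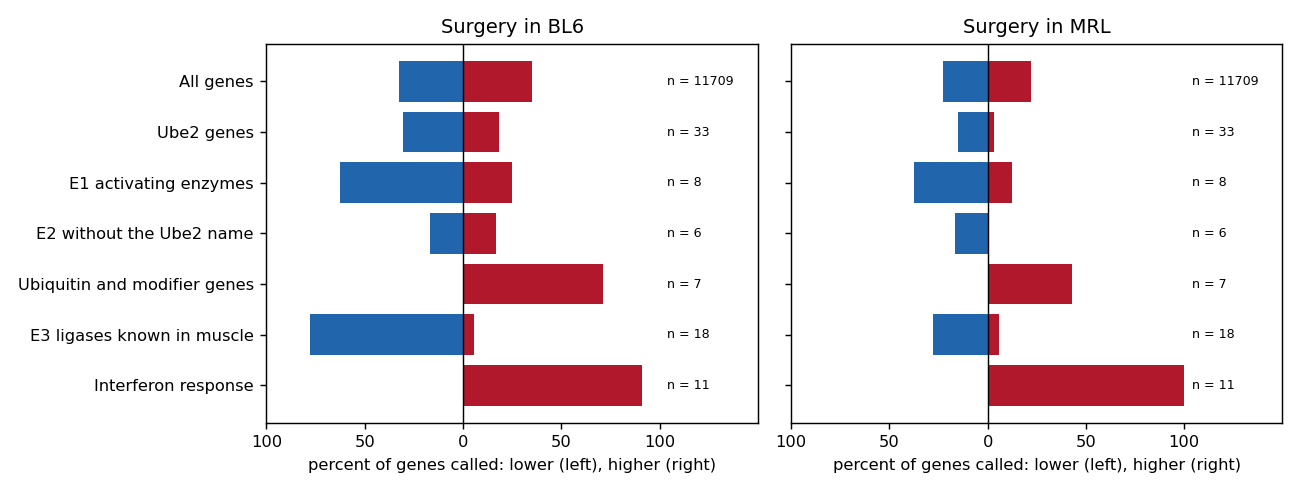
Percent of the genes of each list called lower (left of 0) or higher (right of 0) after surgery in BL6 and MRL, with the number of genes tested beside each bar. No ubiquitin or modifier gene was called lower, 14 of 18 E3 ligases were called lower in BL6 and 5 in MRL, and the Ube2 genes were called in both directions, below the share of all genes in total.

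In the authors' deposited table, at its own false discovery rate under 0.05, 16 members were called for surgery in BL6 (6 higher, 10 lower). Of these, 15 were shared with the calls above, and 64.9% of all genes were called there. Ube2t was called higher in BL6 there (0.51, false discovery rate 0.0174) and not above. Ube2e2 was called above and not there (0.32, false discovery rate 0.110). For surgery in MRL the authors' deposited table called 14 members, 5 higher and 9 lower, which included all 6 named above, and 56.4% of all genes, more than the 45% here. Among the other 8 there were Ube2d-ps, Ube2e2, Ube2f, Ube2l3, Ube2l6, Ube2q1 and Ube2w. Between strains it called the same 5 and 6 members, and every shared call had the same direction.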

How the data were processed

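RNA was sequenced from 16 samples in 4 groups of 4, and strain, surgery and replicate numbers were read from the sample titles. The deposited counts are whole numbers per gene, made by the authors without normalization, as read from the values. The submitters' processing notes name FastQC, STAR, edgeR and mm10; the counting program, strand setting and gene filter are not given in the sources used here. The authors also deposited a table of log2 fold changes with p-values and false discovery rates, per the file headers.

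Counts were fitted with edgeR 4.0.16 in R 4.3.3: TMM scaling, filterByExpr with a minimum count of 10 (11709 of 11710 genes kept) and quasi-likelihood fits over all 16 samples, each group having 1 mean. P-values were adjusted by Benjamini-Hochberg over all genes tested, and the SE is the log2 fold change divided by the root of F. Values in CPM use TMM-scaled libraries, where 3 counts are 0.0718 to 0.122 CPM. Counting error only is covered by that floor. No replicate pair held counts that agreed within sampling noise.

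The single values of 1 member and 1 pathway gene are not reported here, though the counts include them. Members and gene lists were chosen with earlier results of these data known. Values by sample are given for the top 4 rises and top 4 falls among called members (ranked by the mean of both strains), up to 6 members called between strains, and the 2 with the highest level per length. Ube2l6 was added, and Ube2c, Ube2e1, Ube2g2, Ube2v2, Tnnc2, Spopl, Ift46 and Pcna were singled out, after their values were seen. In each pathway list, the most raised and most lowered called gene in BL6 could be named.

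Genes were matched by ID to GENCODE M21 (GRCm38; 33 of 33 members). Near copies were sought with blastn among its transcripts, at 95% identity or more over 200 bases or more. Promoters are from RefSeq. Same-numbered samples of the groups compared had deviations from their group means that correlated at -0.474 to 0.452, so numbers were not treated as pairs. Alternatives covered scaling (RLE, total counts, upper quartile, no mitochondrial genes), filters, DESeq2 1.42.0, limma 3.58.1 (voom), the groups compared alone, a replicate block and leaving out each sample.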

Additional observations from a re-analysis of the deposited data

Results flagged for a closer look

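Of 128 sets of 4 values (32 members in 4 groups), 15 held a sample far from the other 3 by Dixon's criterion at 95%, where chance flags about 1 in 20. Among unoperated BL6 samples, replicate 1 was low for Ube2c at 4.33 CPM (others 5.20 to 5.36) and for Ube2s at 4.75 CPM (others 6.22 to 6.47), and high for Ube2j1 at 48.1 CPM (others 37.5 to 38.6). Replicate 2 was low for Ube2g2 at 72.9 CPM (others 77.7 to 77.9), and replicate 4 was low for Ube2cbp at 2.92 CPM (others 3.66 to 3.76).

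Among operated BL6 samples, replicate 4 was high for Ube2w at 14.8 CPM (others 8.91 to 9.73). Among unoperated MRL samples, replicate 1 was high for Ube2c at 7.03 CPM (others 4.29 to 4.45) and replicate 2 low for Ube2q1 at 24.6 CPM (others 28.7 to 29.3). Replicate 4 was low for Ube2h at 45.6 CPM (others 49.6 to 50.4) and high for Ube2m at 101 CPM (others 89.4 to 91.3) and for Ube2ql1 at 7.37 CPM (others 5.52 to 5.72).

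Among operated MRL samples, replicate 4 was high for Ube2g2 at 126 CPM (others 82.9 to 85.4) and low for Ube2q1 at 29.0 CPM (others 33.3 to 34.0). Replicate 3 was high for Ube2l6 at 24.9 CPM (others 7.84 to 10.4) and replicate 2 high for Ube2r2 at 202 CPM (others 179 to 181).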

How the results depend on the processing

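Of 33 called member values, 19 kept direction and call under each of up to 27 alternatives and none changed direction. Of 6 uncalled values for which the alternatives were tabulated, Ube2m among unoperated strains turned from -0.08 to 0.065 with total counts, which moved the median of all genes there by over 0.1, as did total-count and upper-quartile scaling for surgery in BL6 (from 0.04 to 0.18 and 0.16). Leaving out each sample in turn, members called ran from 13 to 19 for surgery in BL6, 2 to 10 for surgery in MRL, 0 to 1 for the interaction, 3 to 6 for strain among unoperated and 6 to 11 for strain among operated samples. The share of all genes called then ran from 61.4% to 69.8% for surgery in BL6 and from 29.8% to 52.5% in MRL. It ran from 0.00854% to 0.589% for the interaction. Between strains it ran from 7.01% to 13.4% among unoperated and from 8.8% to 15.7% among operated samples. Leaving out 3 samples together, chosen after seeing the data, gave 13 for surgery in MRL, beside 62.4% of all genes. DESeq2 called 1 for the interaction, beside 2.14% of all genes. Fitting only the groups compared gave 3 for strain among operated samples, beside 4.91% of all genes. It was not run for the interaction, which needs all groups. The cause of these moves was not tested. With the replicate number as a block, 15, 6, 0, 4 and 6 members were called in the same order. Of all genes, 67.7%, 44.4%, 0.0171%, 9.79% and 11.6% were called. Ube2e2 in BL6 and Ube2h lost their calls and no other printed call changed. Members under about 5 CPM, such as Ube2ql1, Ube2cbp and Ube2e2, rest on the fewest counts.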
